A study of Mus musculus with 4 samples.

Results

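The genes described here carry glucose carbon from the cell surface to the citric acid cycle in mouse hippocampus. They are 42 genes given by name in a list, from the glucose transporter Slc2a3 through glycolysis, lactate exchange, the mitochondrial pyruvate carrier and the pyruvate dehydrogenase complex to the enzymes of the cycle. All 42 were found among the 16148 genes of the tables, and all 42 passed the filter on low values.

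The series compared hippocampus of mice that lack Tas1r3, a subunit of the sweet and umami taste receptors, with hippocampus of wild-type mice. The KO-WD group (2 libraries) is labelled knockout and the WT-WD group (2 libraries) wild type. Both genotypes were fed a western diet for 18 weeks, so the diet is common to all 4 libraries and is no variable here. The labels give neither the strain, sex or age of the animals, nor whether each library is 1 animal. The p-values below therefore measure the spread between these libraries only, and that spread may be technical.

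In glycolysis, hexokinases trap glucose as glucose 6-phosphate, phosphofructokinases commit it to breakdown, and the lower enzymes end with pyruvate kinase. Pyruvate is either reduced to lactate, which astrocytes are known to release and neurons to take up, or enters mitochondria through the carrier built from MPC1 and MPC2. The pyruvate dehydrogenase complex then turns it into acetyl-CoA, under the control of inhibitory kinases and activating phosphatases, and citrate synthase passes acetyl-CoA into the cycle. In brain this route supplies most of the ATP that synapses use.

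Values are the authors' normalized signal per RefSeq transcript, in units that follow read number and are not divided by transcript length, so levels of different genes are not compared. A gene total is the sum over the rows of a gene, coding (accessions starting NM_) and non-coding (NR_). The depth estimated from the spacing of low values was 13498774 and 12929333 reads for KO-WD, and 11585223 and 15944500 reads for WT-WD, where 3 reads correspond to between 0.563 and 0.775 units. Every member but Hk2 had an estimated 100 reads or more in each library, and Hk2 had at least 49.96. The knockout labels were checked on Tas1r3, which was at 0.887 and 1.85 units in KO-WD and 16.1 and 15.9 units in WT-WD. All 10 hippocampal neuron markers were detected, and their summed signal was 19524 and 21293 units in KO-WD and 20463 and 19904 units in WT-WD. All 10 choroid plexus markers were higher in KO-WD, with sums of 7394 and 3772 units in KO-WD and 3709 and 1519 units in WT-WD. Most of each sum was Ttr, at 6440 and 3078 units in KO-WD and 3212 and 1223 units in WT-WD. All 10 oligodendrocyte markers were lower in KO-WD, with sums of 93573 and 84019 units in KO-WD and 100757 and 115018 units in WT-WD. Most of each of these sums was Mobp, at 81187 and 72698 units in KO-WD and 86394 and 99221 units in WT-WD. Of 10 astrocyte markers 8 were lower, with sums of 8610 and 8828 units in KO-WD and 9203 and 9537 units in WT-WD. Most of each astrocyte sum was Slc1a2, at 5087 and 5397 units in KO-WD and 5411 and 5346 units in WT-WD, with overlap. Of 8 microglia markers 7 were lower and 1 higher, and of 5 red blood cell markers 4 were lower and 1 higher. No marker of these lists passed the test. In bulk tissue, fewer cells of a type and less RNA per cell cannot be told apart, and the part of these shifts in the results below was not tested.

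No step of the pathway differed between the genotypes past the threshold. Of the 42 members 0 passed an adjusted p of 0.05 in limma over all genes, where 0.0637% of the 15707 genes tested passed, and 2 members (4.76%) had an unadjusted p under 0.05, against 5.28% of all genes. The 2 were Mpc1 and Pkm, both lower in KO-WD. The median log2 difference of the members was -0.0025, and that of all genes tested was 0.00025. The difference was under 0.2 in absolute log2 value for 38 of the 42.

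The 95% intervals of limma, which draws each gene's variance toward that of all genes, describe differences between these libraries only. Whether they hold between animals cannot be told from the labels. For 35 of the 42 members the 95% interval of the log2 difference lay within 0.5 of 0. The 7 exceptions were Hk2, Gapdh, Eno1, Pkm, Slc16a7, Mpc1 and Pdk1. The median absolute log2 difference between the genotype means was 0.074 for the members, against 0.097 between the 2 KO-WD libraries and 0.060 between the 2 WT-WD libraries. Over all genes tested these values were 0.15, 0.22 and 0.19. The members had a median signal of 286.1 units, and all genes tested one of 46.4 units. These medians describe read number, not expression level, since transcript length is not accounted for.

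The genotypes did not overlap for 17 members (40.5%), against 36.3% of all genes tested. Of these, 13 were lower in KO-WD (31.0%, against 18.4% of all genes) and 4 higher (9.52%, against 17.9%). On coding rows alone 14 members (33.3%, against 36.4% of all genes with coding rows) did not overlap, 10 lower and 4 higher in KO-WD. Mpc1, Pkm and Ldha overlapped on coding rows. The gene totals are described next. The 4 that were higher were Slc2a3, Eno2, Slc16a1 and Idh3b. Apart from Mpc1 and Pkm, the 13 that were lower differed by between 0.031 (Pgam1) and 0.14 (Ldhb) on the log2 scale, and none had an unadjusted p under 0.05.

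**Figure D1:**
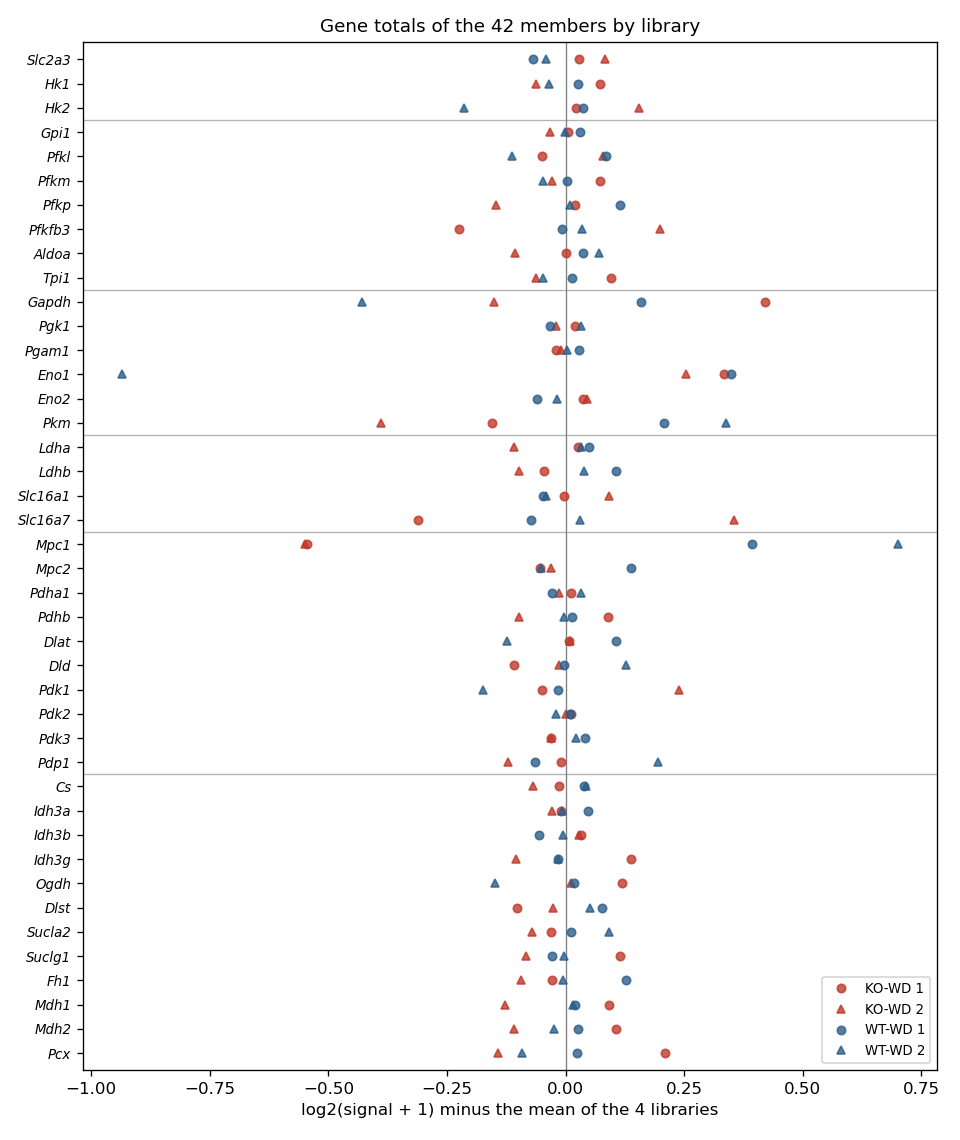
Gene totals of the 42 members in each library, as log2(signal + 1) minus the gene's mean over the 4 libraries, with the genes ordered by step from top to bottom and grey lines between steps. Most genes lie close to 0 in all libraries, Mpc1 and Pkm have both KO-WD libraries left of both WT-WD libraries, and Eno1 has WT-WD replicate 2 far to the left.

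**Figure D2:**
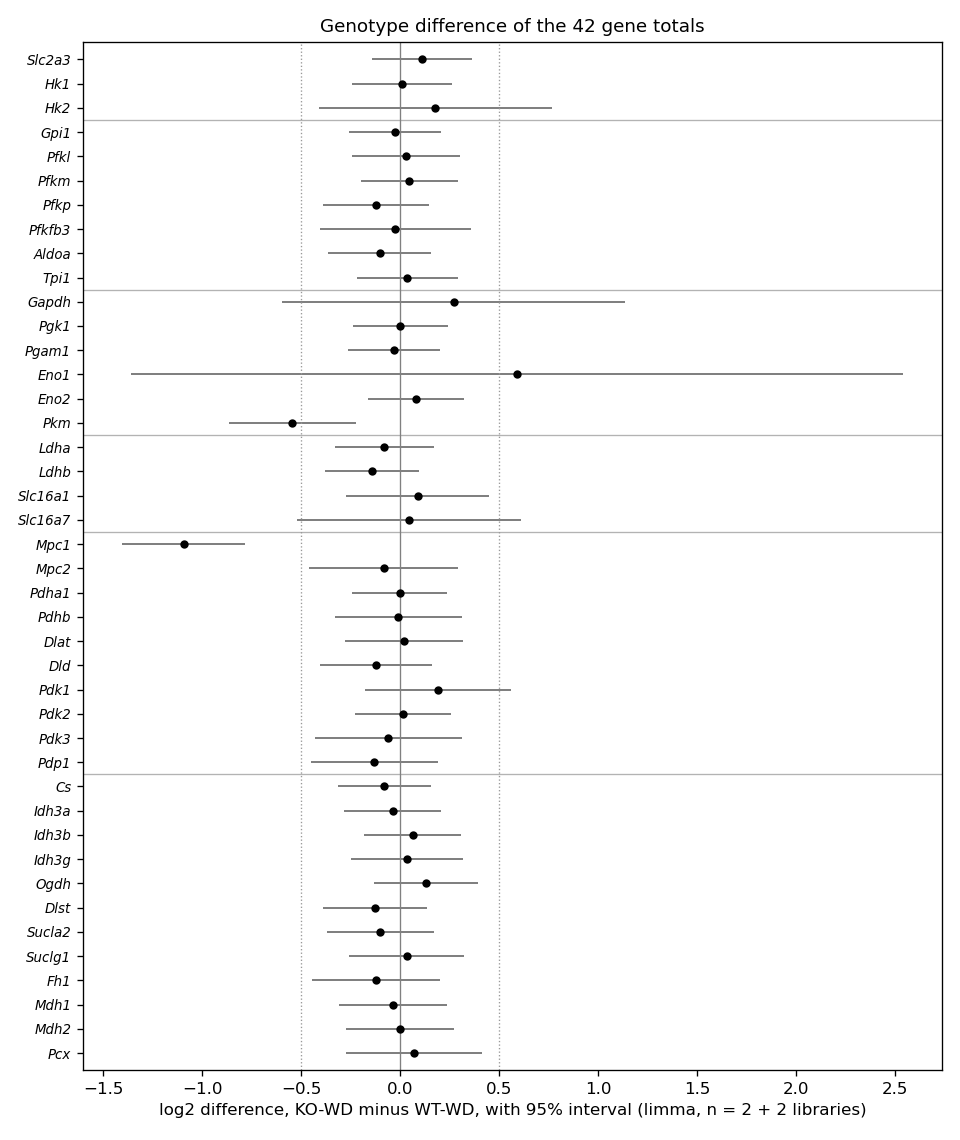
Log2 difference between KO-WD and WT-WD for each member with its 95% interval from limma (2 libraries per genotype). Dotted lines mark 0.5 on either side of 0, and 35 of the 42 intervals lie between them.

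The sequences shown next mark where the pyruvate kinase rows NM_001253883 and NM_011099 differ in a coding exon. Pkm, on chromosome 9, makes the M1 or the M2 isoform of pyruvate kinase by using 1 of a pair of mutually exclusive coding exons. M1 is the form of neurons and muscle, and M2, which phosphorylated sugars activate, is the form of many dividing cells and of astrocytes. The exon of NM_001253883 (M1) lies upstream of the exon of NM_011099 (M2). Both exons are 167 bases long and differ at 64 bases, which stand in capitals. The sequences were cut from the GENCODE M21 transcripts (GRCm38, plus strand) that the annotation pairs with these accessions.
Pkm M1 exon: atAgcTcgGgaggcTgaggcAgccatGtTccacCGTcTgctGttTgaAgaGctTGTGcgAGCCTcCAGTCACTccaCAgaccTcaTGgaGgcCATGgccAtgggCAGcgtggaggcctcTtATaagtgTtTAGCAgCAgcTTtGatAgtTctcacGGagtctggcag
Pkm M2 exon: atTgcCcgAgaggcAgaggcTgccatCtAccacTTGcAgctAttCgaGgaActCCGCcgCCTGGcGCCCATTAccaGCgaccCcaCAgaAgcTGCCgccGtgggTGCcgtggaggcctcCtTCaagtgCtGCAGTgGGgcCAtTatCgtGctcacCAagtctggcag

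Entry of glucose and its phosphorylation showed no difference past the threshold. Slc2a3 encodes GLUT3, the main glucose transporter of neurons. Its gene total was 209.0 and 217.1 units in KO-WD, against 195.5 and 199.1 units in WT-WD. The libraries of the genotypes did not overlap, but the log2 difference of 0.11 (SE 0.11, adjusted p = 0.926, limma) was close to its standard error. Hk1, the hexokinase bound to neuronal mitochondria, was at 1306 and 1190 units in KO-WD and 1265 and 1213 units in WT-WD, so both WT-WD libraries lay between the KO-WD ones. Hk2, the insulin-responsive hexokinase of muscle and fat, was at 12.8 and 14.1 units in KO-WD and 12.9 and 10.7 units in WT-WD. Its interval, from -0.41 to 0.76 on the log2 scale, was wide at this depth.

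Among the enzymes of upper glycolysis no member had an unadjusted p under 0.05. The gene totals of Gpi1, Pfkl, Pfkm, Pfkp, Pfkfb3, Aldoa and Tpi1 differed by between -0.13 and 0.04 on the log2 scale. Of the phosphofructokinases, the muscle-type Pfkm was at 1186 and 1106 units in KO-WD and 1131 and 1091 units in WT-WD. The platelet-type Pfkp was at 310.0 and 276.1 units in KO-WD and 331.1 and 307.7 units in WT-WD. The liver-type Pfkl averaged 484.9 ± 30.6 units in KO-WD and 476.1 ± 46.4 units in WT-WD (SD, n = 2 each). All 3 overlapped between the genotypes.

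Aldoa, the aldolase that splits fructose 1,6-bisphosphate, was the member of this step without overlap. It was at 3620 and 3361 units in KO-WD, against 3709 and 3797 units in WT-WD. The log2 difference was -0.11 (SE 0.11, adjusted p = 0.929, limma). Pfkfb3, whose product makes the activator of phosphofructokinase, averaged 134.3 ± 27.9 units in KO-WD and 135.3 ± 2.83 units in WT-WD. Tpi1 and Gpi1, the isomerases of the step, differed by 0.03 and -0.03 on the log2 scale.

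In lower glycolysis the largest differences were those of Eno1 and Pkm. Pgk1, which makes the first ATP of the pathway, averaged 362.7 ± 6.77 units in KO-WD and 362.8 ± 11.8 units in WT-WD, a log2 difference of -0.00037. Pgam1, a phosphoglycerate mutase, averaged 894.7 ± 4.48 units in KO-WD and 914.5 ± 11.7 units in WT-WD. Eno2, the enolase of neurons, averaged 2099 ± 8.58 units in KO-WD and 1986 ± 40.6 units in WT-WD, a log2 difference of 0.08 (SE 0.10).

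Eno1, the enolase that all cells carry, stood apart in 1 library. Its gene total was 1319 and 1248 units in KO-WD, against 1332 and 546.6 units in WT-WD. WT-WD replicate 2 was low, and the other 3 libraries lay between 1248 and 1332 units. The log2 difference was 0.59 (SE 0.56, adjusted p = 0.929, limma), and -0.054 without WT-WD replicate 2. Eno1b, a copy on chromosome 18, aligned to the Eno1 transcript over 1736 bases with 9 mismatches, an identity of 99.5%. Its signal was 1828 and 1777 units in KO-WD, against 1830 and 2612 units in WT-WD, so WT-WD replicate 2 was high there.

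The sum of Eno1 and Eno1b was 3147 and 3025 units in KO-WD, and 3162 and 3159 units in WT-WD. The WT-WD libraries were therefore nearly equal once the copies were added, both a little above the KO-WD ones, and the log2 difference of the sum was -0.035 (SE 0.11, adjusted p = 0.981, limma). Eno1 held 41.9% and 41.2% of the sum in KO-WD, and 42.1% and 17.3% in WT-WD. With coding rows alone Eno1 passed when WT-WD replicate 1 was left out, which leaves replicate 2 as the lone wild-type library (log2 1.23, adjusted p = 0.0348, limma). That call rests on the library in which the split differed.

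**Figure D3:**
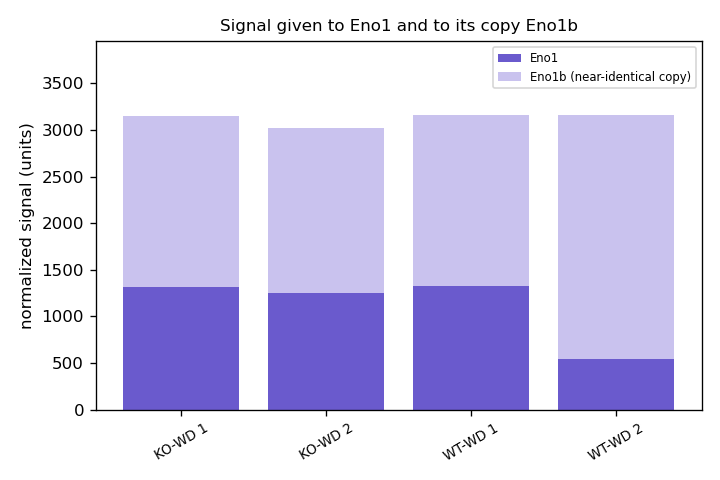
Normalized signal given to Eno1 (lower bar) and to its near-identical copy Eno1b (upper bar) in each library, KO-WD on the left. The stacked totals lie between 3025 and 3162 units, while the Eno1 share is 17.3% in WT-WD replicate 2 and between 41.2% and 42.1% in the other libraries.

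Gapdh, often used as a reference gene, varied between the libraries of each genotype. It was at 931.8 and 626.0 units in KO-WD, against 776.8 and 516.5 units in WT-WD. In each genotype replicate 2 was the lower library, and the genotypes overlapped (log2 0.27, interval -0.60 to 1.14). With the replicate number as a block, the unadjusted p of Gapdh was 0.0445 (adjusted p = 0.858, limma), against 0.432 without the block. GENCODE M21 holds 77 other genes or pseudogenes whose transcripts align to Gapdh at 95% identity or more over at least 200 bases. Of these, 2 have a row in the tables, Gm12070 and Gm5069. With both added, Gapdh was at 1225 and 795.8 units in KO-WD and 991.0 and 655.7 units in WT-WD, and the spread within genotype stayed. In all, 11 of the 42 members had at least 1 such copy, and 2 of the 11, Eno1 and Gapdh, had a copy with a row of its own. The totals of these 11 genes are less certain for this reason. Copies below that cutoff were not counted, and their part in the other totals was not tested. The 11 are Eno1, Gapdh, Gpi1, Ldha, Ldhb, Mpc1, Pdhb, Pgam1, Pgk1, Pkm and Tpi1.

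Pkm, the pyruvate kinase gene, had the lowest p-value of the glycolytic members. Its gene total was 11467 and 9751 units in KO-WD, against 14753 and 16141 units in WT-WD. Both KO-WD libraries lay below both WT-WD libraries (log2 -0.55, SE 0.14, unadjusted p = 0.00486, adjusted p = 0.714, limma). The total was mostly signal of rows that RefSeq lists as non-coding, which held 70.9% and 69.3% of it in KO-WD and 78.4% and 83.5% in WT-WD. An exact permutation test of this share over the 4 libraries gave p = 0.333 (two-sided), the smallest p that 2 against 2 allows.

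Most of the difference of Pkm lay in 1 of its 10 rows. The non-coding row NR_166145 was at 6216 and 4552 units in KO-WD, against 9091 and 11716 units in WT-WD (log2 -0.96, SE 0.22, unadjusted p = 0.00979, adjusted p = 0.816, limma over single transcripts). The other non-coding row, NR_166146, overlapped between the genotypes, at 1918 and 2209 units in KO-WD and 2469 and 1764 units in WT-WD. The 8 coding rows together were at 3333 and 2990 units in KO-WD, against 3193 and 2660 units in WT-WD. On coding rows alone the log2 difference was thus 0.12 (SE 0.096, interval -0.10 to 0.33, adjusted p = 0.872, limma), of the opposite sign.

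The isoform rows whose exons are printed above overlapped between the genotypes. The M1 row NM_001253883 was at 2293 and 2249 units in KO-WD, against 2377 and 1821 units in WT-WD. The M2 row NM_011099 was at 97.0 and 65.9 units in KO-WD, against 96.6 and 72.0 units in WT-WD. In the M1 row the KO-WD libraries lay between the WT-WD ones, and in the M2 row the WT-WD libraries lay between the KO-WD ones. Divided by the GENCODE transcript lengths of 2041 and 2432 bases, M2 made up 3.43% and 2.40% of the signal of this pair of rows in KO-WD, and 3.30% and 3.21% in WT-WD. M1 thus carried nearly all of it in every library. The other coding rows of Pkm were not assigned to an isoform, and all rows of a gene share exons among which the authors' quantification had to divide reads.

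Lactate dehydrogenase and the monocarboxylate transporters showed small differences. Ldha encodes the subunit that favours lactate formation, and was at 387.3 and 352.3 units in KO-WD, against 393.2 and 389.0 units in WT-WD. Ldhb encodes the subunit that favours lactate use, and was at 851.9 and 820.5 units in KO-WD, against 945.5 and 902.6 units in WT-WD. Both genes lay lower in KO-WD without overlap, by 0.08 (SE 0.11) and 0.14 (SE 0.10) on the log2 scale, and neither passed (adjusted p = 0.939 and 0.911, limma). Ldha includes a non-coding row, NR_102727, at 12.3 and 32.0 units in KO-WD and 33.9 and 32.0 units in WT-WD. On its coding rows alone Ldha overlapped, at 374.9 and 320.4 units in KO-WD, against 359.4 and 357.0 units in WT-WD. Slc16a1, the transporter MCT1 of glia and endothelium, was at 53.3 and 56.9 units in KO-WD, against 51.6 and 51.9 units in WT-WD. Slc16a7, the transporter MCT2 of neurons, averaged 47.0 ± 15.4 units in KO-WD and 44.4 ± 2.32 units in WT-WD, and its KO-WD libraries lay on either side of the WT-WD ones.

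Mpc1, on chromosome 17, had the lowest p-value of all members. It encodes an obligate partner in the carrier that brings pyruvate into mitochondria. Its gene total was 152.8 and 152.3 units in KO-WD, against 293.9 and 363.9 units in WT-WD. The KO-WD totals were almost equal and lay at 46.4% of the WT-WD mean. Their parts differed in opposite directions, with coding signal of 88.9 and 67.1 units and non-coding signal of 63.9 and 85.2 units. In their own fits the log2 differences of the coding and non-coding parts had SEs of 0.17 and 0.46. The log2 difference of the total was -1.10 (SE 0.13, interval -1.41 to -0.78, unadjusted p = 6.28e-05, limma). Adjusted over the 15707 genes in limma, p was 0.0822, above 0.05. It passed without KO-WD replicate 1 (adjusted p = 0.025) or without KO-WD replicate 2 (adjusted p = 0.0271), where the lone KO-WD library is assumed to vary like the others and the calls over all genes numbered 94 and 82, against 10 with all 4 libraries.

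Most of the difference of Mpc1 lay in its 1 non-coding row. The non-coding row NR_157360 was at 63.9 and 85.2 units in KO-WD, from an estimated 288.3 and 368.1 reads. In WT-WD it was at 204.6 and 276.5 units, from an estimated 791.6 and 1473 reads. Both KO-WD libraries lay well below both WT-WD libraries, and the KO-WD mean was 31.0% of the WT-WD mean. The log2 difference was -1.67 (SE 0.46, unadjusted p = 0.0182, adjusted p = 0.84, limma over the 1986 genes with non-coding rows, of which 0% passed and 5.69% had an unadjusted p under 0.05). Tested as 1 of 29293 single transcripts, the same row had a log2 difference of -1.67 (SE 0.24, unadjusted p = 0.0015, adjusted p = 0.816, limma).

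The coding rows of Mpc1 overlapped between the genotypes. Together they were at 88.9 and 67.1 units in KO-WD, against 89.3 and 87.4 units in WT-WD. KO-WD replicate 2 was the low library, and KO-WD replicate 1 lay inside the WT-WD range. The log2 difference was -0.19 (SE 0.17, interval -0.57 to 0.18, adjusted p = 0.877, limma on coding rows), and 0.0081 without KO-WD replicate 2. Of the 14596 genes with coding rows 0.00685% passed that test, and 0 of the 42 members did. An unadjusted p under 0.05 was found for 0 members on coding rows, against 6.29% of all genes, and 14 members (33.3%) did not overlap, against 36.4%.

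The main coding row of Mpc1, NM_018819, was at 82.5 and 62.0 units in KO-WD and 84.1 and 57.3 units in WT-WD. The minor coding row NM_001364918 was at 3.42 and 2.41 units in KO-WD, against 3.43 and 25.3 units in WT-WD, so that WT-WD replicate 2 alone was high. NM_001364919 was under 5 units in every library. The non-coding share of the gene was 41.8% and 56.0% in KO-WD, against 69.6% and 76.0% in WT-WD (exact permutation test, two-sided, p = 0.333, the smallest p possible). The lncRNA gene 4930506C21Rik overlaps the span of Mpc1 in the GRCm38.p6 gene table, and its signal was between 1.86 and 4.85 units in all 4 libraries.

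**Figure D4:**
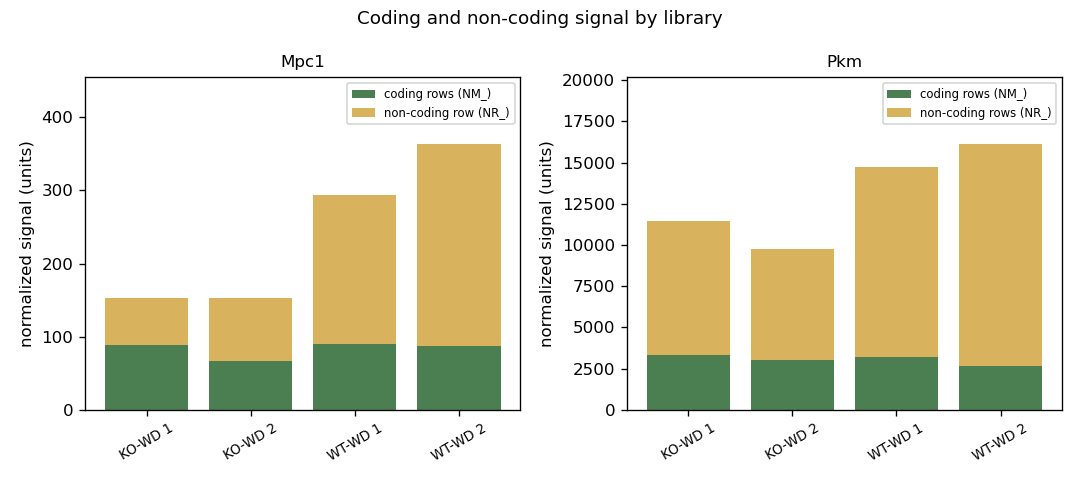
Normalized signal of the coding (lower bars) and non-coding rows (upper bars) of Mpc1 and Pkm in each library, KO-WD on the left. The non-coding parts are smaller in both KO-WD libraries (63.9 and 85.2 units for Mpc1) than in both WT-WD libraries (204.6 and 276.5 units), while the coding parts overlap.

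Mpc2, the other subunit of the carrier, showed no difference past the threshold. It has 1 coding row, on chromosome 1, and was at 50.8 and 51.6 units in KO-WD, against 58.1 and 50.8 units in WT-WD. The genotypes overlapped (log2 -0.08, SE 0.16, adjusted p = 0.962, limma).

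In the pyruvate dehydrogenase complex and its regulators no gene had an unadjusted p under 0.05. Pdha1, the alpha subunit of its first enzyme, was at 341.4 and 335.6 units in KO-WD and 331.9 and 346.5 units in WT-WD. Its log2 difference of -0.0028 had an interval from -0.24 to 0.24. Pdhb, the beta subunit, averaged 99.8 ± 9.31 units in KO-WD and 100.3 ± 0.923 units in WT-WD. Dlat, the acetyltransferase core, averaged 168.5 ± 0.194 units in KO-WD and 167.1 ± 18.9 units in WT-WD. Dld, the dehydrogenase that this complex shares with oxoglutarate dehydrogenase, was at 149.8 and 159.8 units in KO-WD, against 161.1 and 176.4 units in WT-WD, close but without overlap (log2 -0.12, SE 0.12).

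Of the kinases that switch the complex off, Pdk1 was at 89.0 and 109.0 units in KO-WD and 91.1 and 81.6 units in WT-WD. It had the largest positive difference of this step, 0.19 (SE 0.16, adjusted p = 0.911, limma), with overlap between the genotypes. Pdk2 averaged 278.5 ± 1.28 units in KO-WD and 276.0 ± 4.01 units in WT-WD, and Pdk3 averaged 45.3 ± 0.0242 units in KO-WD and 47.3 ± 0.442 units in WT-WD. The phosphatase Pdp1, which switches the complex on, averaged 142.7 ± 7.85 units in KO-WD and 157.0 ± 20.1 units in WT-WD.

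The 12 genes of the citric acid cycle and of pyruvate carboxylase lay between -0.13 and 0.13 on the log2 scale, 5 higher and 7 lower in KO-WD. None had an unadjusted p under 0.05. Dlst, the succinyltransferase of oxoglutarate dehydrogenase, was at 165.3 and 174.3 units in KO-WD, against 187.5 and 184.1 units in WT-WD. Fh1, fumarase, was at 86.2 and 82.4 units in KO-WD, against 96.2 and 87.7 units in WT-WD. Both lay lower in KO-WD without overlap, by 0.13 (SE 0.11) and 0.12 (SE 0.14) on the log2 scale.

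Ogdh, the first enzyme of the oxoglutarate dehydrogenase complex, was at 898.6 and 834.1 units in KO-WD and 837.4 and 745.9 units in WT-WD, with overlap. Mdh1, the cytosolic malate dehydrogenase of the malate-aspartate shuttle, was at 1348 and 1157 units in KO-WD, on either side of 1282 and 1278 units in WT-WD. Cs, citrate synthase, averaged 424.2 ± 11.5 units in KO-WD and 448.8 ± 0.706 units in WT-WD, a log2 difference of -0.08 (SE 0.10). The subunits of isocitrate dehydrogenase, Idh3a, Idh3b and Idh3g, differed by -0.04, 0.06 and 0.03. Sucla2 and Suclg1, subunits of succinyl-CoA ligase, differed by -0.10 and 0.03. Mdh2, the mitochondrial malate dehydrogenase, differed by -0.0022, and Pcx, pyruvate carboxylase, an enzyme of astrocytes that refills the cycle, by 0.07 (SE 0.15).

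Single transcripts varied more than gene totals. The 42 genes have 99 rows, 95 coding and 4 non-coding, and 19 genes have 1 row. None of the 99 passed in limma over the 29293 transcripts tested, of which 0% passed. An unadjusted p under 0.05 was found for 7 rows (7.07%), against 5.69% of all transcripts, and 35 rows did not overlap between the genotypes, where 35.0% of all transcripts did not. Besides the non-coding rows of Mpc1 and Pkm, these were 5 coding rows. Rows were not named by the rule for genes and were chosen here after their values were seen.

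The 5 belong to 4 genes, none of which had an unadjusted p under 0.05 as a gene total. Ogdh NM_001361903 was at 93.3 and 84.3 units in KO-WD, against 42.9 and 44.8 units in WT-WD (log2 1.00, SE 0.18, adjusted p = 0.816), the 1 row of the 7 that was higher in KO-WD. The lncRNA gene Gm46270, which overlaps the span of Ogdh in the GRCm38.p6 gene table, was at 259.8 and 192.2 units in KO-WD, against 53.5 and 186.8 units in WT-WD, and its part in the row was not tested. Pfkfb3 NM_001177752 was at 8.12 and 8.38 units in KO-WD, against 22.7 and 21.3 units in WT-WD. Pfkfb3 NM_001177754 was at 16.9 and 19.97 units in KO-WD, against 44.2 and 34.0 units in WT-WD. The genotypes did not overlap in these Pfkfb3 rows, and neither passed (adjusted p = 0.816 and 0.817, limma over single transcripts). Other Pfkfb3 rows went both ways without overlap. NM_001177753 (10.6 and 14.3 units in KO-WD, 7.24 and 5.09 units in WT-WD) and NM_001177757 lay higher in KO-WD, and NM_001177756 lay lower. The total of the 8 Pfkfb3 rows differed by -0.03 on the log2 scale. Pfkp NM_001291071 was at 23.6 and 32.5 units in KO-WD, against 87.6 and 45.3 units in WT-WD. Ldhb NM_001302765, a minor row, was at 2.77 and 4.08 units in KO-WD, against 12.9 and 14.6 units in WT-WD.

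**Figure D5:**
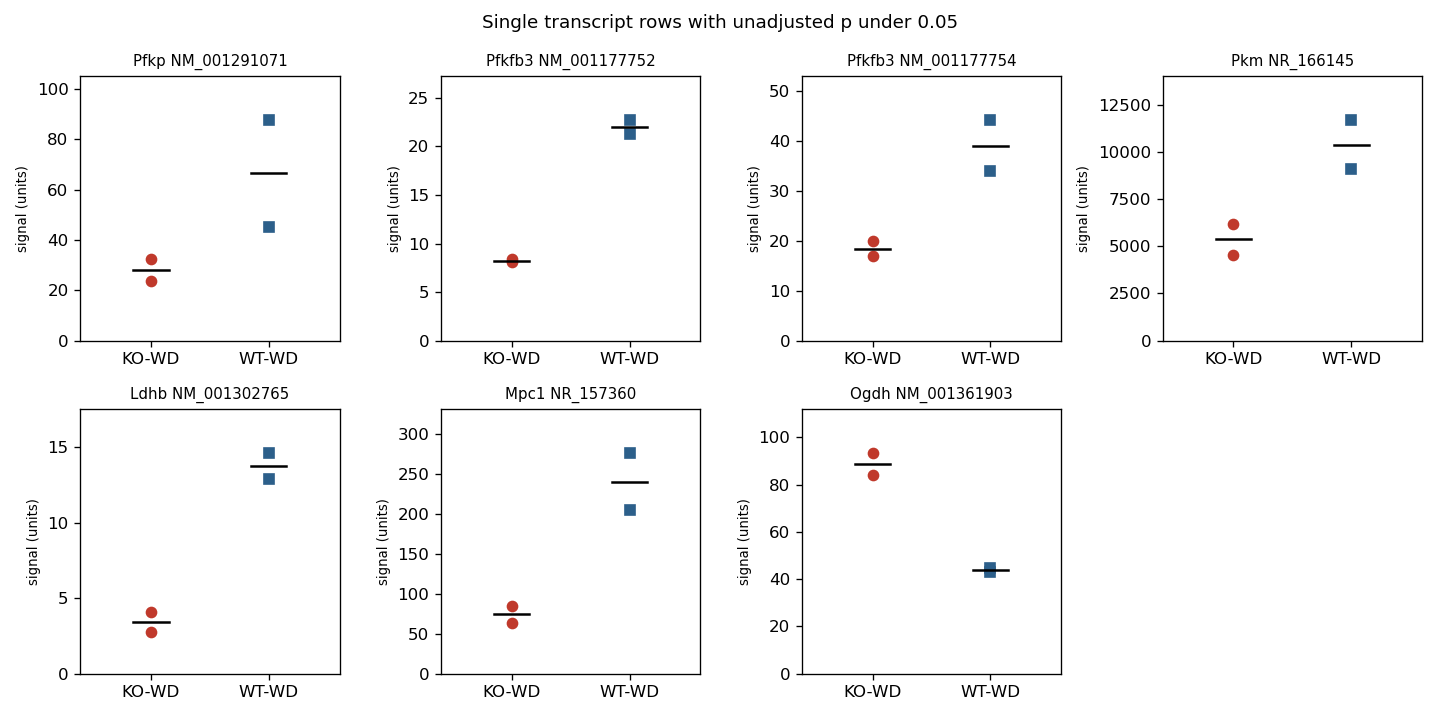
Normalized signal of the 7 single transcript rows of member genes with an unadjusted p under 0.05, one panel per row, with KO-WD left of WT-WD, points for libraries and lines for group means. Of the 7, 6 lie lower in KO-WD and 1 (Ogdh NM_001361903) lies higher, and 0 of them passed after adjustment.

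Among the other genes of the pathway none passed either. Of 67 genes listed for glucose and monocarboxylate transport, the remaining enzymes of these steps and the pentose phosphate branch, 61 were tested and 0 passed in limma. At an unadjusted p under 0.05 there were 4, 3 lower and 1 higher in KO-WD, where 5.28% of all genes tested had such a p. The genotypes did not overlap for 18 of the 61, 13 higher and 5 lower in KO-WD. Of all genes tested 36.3% did not overlap, 17.9% higher and 18.4% lower in KO-WD. The median log2 difference of the 61 was 0.054. Slc2a1, the glucose transporter GLUT1 of the blood-brain barrier and of astrocytes, was at 310.1 and 278.7 units in KO-WD, against 386.2 and 396.6 units in WT-WD (log2 -0.41, SE 0.11, adjusted p = 0.733). It was lower in both KO-WD libraries, as were Slc16a3 and Pfkfb4.

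Slc16a3, the lactate exporter MCT4 of astrocytes, was at 6.43 and 8.36 units in KO-WD, against 16.1 and 14.1 units in WT-WD (log2 -0.94, SE 0.27, adjusted p = 0.825). Pfkfb4, a relative of Pfkfb3, was at 727.5 and 705.3 units in KO-WD, against 1152 and 868.9 units in WT-WD (log2 -0.48, SE 0.15, adjusted p = 0.848). Lias, which makes the lipoyl group that the dehydrogenase complexes need, was at 56.0 and 69.0 units in KO-WD, against 40.8 and 50.6 units in WT-WD (log2 0.44, SE 0.19, adjusted p = 0.902). The genotypes did not overlap in any of these 4. Among the marker lists, 8 of 10 astrocyte markers lay lower and 2 higher in KO-WD. Their median log2 difference was -0.11, with a range from -0.57 (Aqp4) to 0.22 (Sox9). Of 8 endothelial markers 6 lay lower and 2 higher, with a median of -0.30 and a range from -0.69 (Cdh5) to 0.70 (Slco1a4). The endothelial markers summed to 428.4 and 430.1 units in KO-WD, against 416.4 and 567.0 units in WT-WD. All 10 choroid plexus markers lay higher in KO-WD, with a median of 1.11. Of 5 red blood cell markers 4 lay lower and 1 higher, with a median of -0.47. The part of any cell type in these differences was not tested.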

How the data were processed

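Per the labels' protocols, total RNA from hippocampus was made into libraries with an Ion Total RNA-Seq kit. STAR, Partek (both without a version) and the build mm39 come from the submitters' processing notes. The authors deposited, per library, a normalized signal for each of 30108 RefSeq transcripts, with nearly equal totals. How reads were divided among transcripts, how values were normalized and whether strand was used is not given in the sources used here. Each deposited value appears to include a constant of 0.0001, which was subtracted. Low values pile up at multiples of what 1 read is worth, which gave the estimated depths; between 16.9% and 23.5% of rows under 20 reads were whole within 0.02 read, so no count model was used. Estimated reads cover counting error only.

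Symbols came from a RefSeq table of GRCm38.p6 (30073 rows matched, 35 kept their accession), used for names, chromosomes and overlaps, not coordinates. Rows were summed per symbol. Features that reached 1 unit in 2 or more libraries were tested as log2(signal + 1) in limma 3.58.1 (R 4.3.3; trend, robust, two-sided, Benjamini-Hochberg over all features, threshold 0.05), with fold changes on that scale. Non-coding rows held between 34.9% and 35.2% of each library's signal. The test was run on simulated data with independent normal noise and changes larger than that of any member, Mpc1 included. That check does not cover differences of the size seen here or the division of reads among transcripts and copies. Copies were found with BLAST 2.17.0 against GENCODE M21 transcripts. The members and lists were chosen with earlier results of these data known. Named with values in every library were Mpc1, Mpc2 and, per step, the 3 members with the smallest unadjusted p and the member with the highest signal, and the 4 other pathway genes with the smallest p. Other members are given by mean or difference.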

Additional observations from a re-analysis of the deposited data

How the results depend on the processing

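The count of 0 members called in limma became 1 with the replicate number as a block and with a threshold of 0.1, and between 0 and 1 when 1 library was left out. That member was Mpc1, whose log2 difference was -1.1 under the replicate block (adjusted p = 0.0458) and between -1.25 and -0.941 with 1 library left out. Its adjusted p ranged from 0.025 to 0.766 over the 12 alternatives. Of the coding rows, between 0 and 1 member passed with 1 library left out, Eno1. The coding rows of Mpc1 lay between -0.393 and 0.00808 with 1 library left out, and the non-coding rows between -1.89 and -1.46, with no call. The median of the members lay between -0.0539 and 0.0126, with the largest shift without KO-WD replicate 1. Calls over all genes numbered 10 with the main settings, 47 with the replicate block, 0 in limma without trend or robust moderation (951 at an unadjusted p under 0.05), and between 14 and 94 with 1 library left out. Counts for single transcripts and for other pathway genes stayed at 0.

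The 20 other named members gave 242 values under alternatives. None passed (lowest adjusted p 0.121) and 13 changed sign. Hk1 was at -0.0158 and Pdha1 at 0.0122 with quantile normalization, and Eno1 at -0.0346 with its copy added, an alternative chosen after seeing the data. With 1 library left out, Hk1 lay between -0.0582 and 0.0761, Pfkm between -0.00682 and 0.094, Gapdh between -0.0244 and 0.563, Eno1 between -0.0544 and 1.23, Mpc2 between -0.18 and 0.01, Pdha1 between -0.0337 and 0.0282 and Mdh1 between -0.146 and 0.0743. The replicate block changed no other call. By design the replicate number was a block only in this alternative. Deviations of same-numbered libraries correlated at 0.038 across genes. A correlation over all genes cannot tell whether some genes, such as Gapdh, shared a difference between the replicate numbers. The count-based tools listed as an alternative were not run, because the tables hold no counts. With 2 libraries per genotype, differences smaller than the intervals given could not be seen.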
